A study of Homo sapiens with 15 samples.

Results

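The miRNAs described here are those whose precursors skip Drosha, namely hsa-miR-320a, hsa-miR-320b, hsa-miR-320c, hsa-miR-320d, hsa-miR-320e and hsa-miR-484. They are defined by name, without a threshold on a measured value. Of these 6 members, 4 have a row among the 2418 miRNAs of the knockdown counts and among the 2189 miRNAs of the RIP-seq counts. These are miR-320a, miR-320d, miR-320e and miR-484, while miR-320b and miR-320c were not analysed here. All libraries came from FTO1C1, FTO2D4 and FTO3C3, which are uninduced derivatives of Flp-In 293 T-Rex cells, a form of the human embryonic kidney line HEK293, and each of which is 1 clone. For the knockdown, each line was transfected for 48 h with 10 nM of siRNA against FTO, a demethylase of N6-methyladenosine (m6A), or with a scrambled siRNA as the control. For the immunoprecipitation (RIP-seq), small RNA of untreated cells of the same lines was sequenced as input, after precipitation with an antibody against m6A, or after precipitation with a nonspecific IgG. Each of the 5 groups holds 3 libraries, 1 per line, which makes 6 knockdown and 9 RIP-seq libraries.

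Most miRNAs are cut from a long primary transcript by Drosha and its partner DGCR8 in the nucleus, and the resulting hairpin is cut again by Dicer in the cytoplasm. The hairpins of miR-320 and miR-484 are instead transcribed directly as short RNAs with a cap at their 5′ end, are exported with that cap and meet only Dicer. In miR-320 the mature strand comes from the 3′ arm of the hairpin, away from the cap. This route is known best for miR-320a and miR-484, the other members are grouped with them by name, and the route itself was not measured in these libraries.

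The mature sequences show which members a read can tell apart. They were taken from RefSeq (GRCh38.p14) for 5 of the 6 members. MiR-320a was left out of this set, so its sequence was not examined here. The capitals mark the seed (bases 2 to 8), the stretch with which a miRNA pairs to its targets.

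hsa-miR-320b: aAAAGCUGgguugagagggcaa

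hsa-miR-320c: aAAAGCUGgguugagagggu

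hsa-miR-320d: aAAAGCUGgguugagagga

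hsa-miR-320e: aAAGCUGGguugagaagg

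hsa-miR-484: uCAGGCUCaguccccucccgau

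MiR-320b, miR-320c and miR-320d carry the same seed and share their first 18 bases, after which they differ only at the 3′ end. MiR-320e starts 1 base later in the common stretch, so that its seed is shifted, and its longest run in common with the other 3 is 15 bases. MiR-484 has another seed and shares no run longer than 3 bases with any of them. The miR-320 sequences are rich in adenosine, the base that can carry m6A, with 30.0% to 36.8% of their bases, against 13.6% in miR-484 and a median of 22.7% over the 1923 miRNAs of the RIP-seq counts with a RefSeq sequence. None of the 5 sequences holds GAC or AAC, a core of the m6A consensus known from mRNA, which stood in 39.2% of those 1923 miRNAs. The words AAAA or AAGA or AGAA or AGGA or AUAA or AUGA, read on the miRNA strand, were found in each of the 4 printed miR-320 sequences and not in miR-484, and in 33.5% of the 1923 miRNAs. These words spell out ADRA, a motif that the paper found by searching the miRNAs precipitated in this same RIP-seq experiment. That set held miR-320a and miR-484, so the matches to these words are no separate support. All these matches describe the letters only.

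On GRCh38.p14, mature miR-320b lies at chr1:116671787-116671808 (plus strand, MIR320B1, in no other annotated gene) and at chr1:224257049-224257070 (minus strand, MIR320B2, inside NVL). MiR-320c lies at chr18:21683559-21683578 inside ABHD3 and at chr18:24321716-24321735 inside OSBPL1A, both on the plus strand. MiR-320d lies at chr13:40727828-40727846 and at chrX:140926172-140926190, both on the minus strand and in no other gene. MiR-320e lies at chr19:46709294-46709311 on the minus strand, inside PRKD2. MiR-484 lies at chr16:15643301-15643322 on the plus strand, in no other gene. Each of the miR-320 sequences begins between bases 41 and 44 of its hairpin of 71 to 73 bases, on the 3′ arm, while miR-484 takes bases 8 to 29 of a hairpin of 79 bases, on the 5′ arm. Reads were matched to mature sequences and not to the genome, so a count cannot be assigned to 1 of the loci that share a sequence.

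The deposited counts were made by giving a read to the mature miRNA with the most matching bases, provided that exact matches of at least 7 bases covered at least 17 bases. Under this criterion, a read with the full sequence of miR-320d covers 18 bases of miR-320b and of miR-320c, and therefore matches all 3, whereas it covers 15 bases of miR-320e and 0 of miR-484. A full miR-320e read reaches 15 bases on the other 3 and matches none of them. A full miR-320d read covers 19 bases of its own sequence, so the rule of most matching bases gives it to miR-320d. A shorter read that ends within the shared first 18 bases fits miR-320b, miR-320c and miR-320d alike. The counts of miR-320d and these relatives are uncertain with respect to each other for such reads, whereas miR-484 cannot take reads of the printed members. MiR-320a was not part of this comparison of sequences.

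The libraries held 1991317 to 3876806 miRNA reads in the knockdown, 1408702 to 1500357 in the input, 569501 to 4973238 after m6A and 186446 to 786688 after IgG precipitation. Levels are given as reads per 1000000 miRNA reads (RPM), so they are shares of a library. In such bulk RNA, fewer cells and less RNA per cell cannot be told apart. MiR-10a-5p took 22.1% to 30.6% of the reads of the knockdown libraries, and miR-6080 took 15.5% to 28.4% of the input, 41.3% to 47.8% of the m6A and 58.0% to 71.6% of the IgG reads. In the smallest library, IgG of FTO3C3, 1 read equals 5.36 RPM.

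In scrambled siRNA cells, miR-484 and miR-320a were well expressed and the other counted members were rare. MiR-484 gave 3257, 3296 and 2323 reads in FTO1C1, FTO2D4 and FTO3C3, which are 895, 1338 and 1167 RPM (mean 1133 ± 223, SD, n = 3). This mean ranked 83rd among 2418 miRNAs. MiR-320a gave 557, 493 and 476 reads, or 153, 200.1 and 239 RPM (mean 197 ± 43.0), at rank 230. MiR-320d gave 13, 9 and 5 reads (3.25 ± 0.638 RPM) and miR-320e 19, 9 and 9 reads (4.47 ± 0.786 RPM). Both minor members stayed below 15 RPM in all 3 lines, and their levels overlapped. For 9 reads in FTO2D4, the 95% Wilson interval of the share runs from 1.92 to 6.94 RPM, and such intervals cover counting error only, since reads of PCR products are not independent molecules.

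After FTO knockdown, none of the 4 counted members passed the test. MiR-320a had 482, 541 and 618 reads in FTO1C1, FTO2D4 and FTO3C3, equal to 139, 156 and 159 RPM (mean 151 ± 11.3, SD, n = 3). It was lower than with scrambled siRNA in each line, while the 2 groups overlapped between 153 and 159 RPM. The ratios of FTO siRNA to scrambled siRNA were 0.905 in FTO1C1 (95% exact counting interval 0.799 to 1.02), 0.781 in FTO2D4 (0.690 to 0.884) and 0.667 in FTO3C3 (0.591 to 0.753), with a mean of 0.784 ± 0.119. In FTO1C1 the interval includes no change, whereas in the other lines it does not. The log2 fold change of miR-320a was -0.36 (SE 0.17), with an adjusted p = 0.199 (edgeR, quasi-likelihood, Benjamini-Hochberg over 2374 miRNAs).

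MiR-484 did not pass the test either, and its direction differed between the lines. Its FTO siRNA libraries held 3547, 3919 and 3993 reads, or 1019, 1132 and 1030 RPM (mean 1060 ± 62.1, SD, n = 3), all within the range of the scrambled siRNA libraries. The within-line ratios were 1.14, 0.846 and 0.883, so that FTO1C1 was higher and the other lines were lower. Its log2 fold change was -0.08 (SE 0.15, adjusted p = 0.763 by edgeR). It was -0.37 with TMM scaling (adjusted p = 0.261, unadjusted p = 0.0359 in edgeR) and -0.37 with DESeq2 (adjusted p = 0.217).

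Of the minor members, miR-320e had 19, 25 and 21 reads with FTO siRNA (5.46, 7.22 and 5.42 RPM), and its ratios were 1.05, 1.98 and 1.20. Its levels did not overlap between the groups, since the highest scrambled siRNA library stood at 5.22 RPM. How many of all miRNAs showed no overlap was not counted. The log2 fold change of miR-320e was 0.41 (SE 0.32), with an adjusted p = 0.428 by edgeR. The counting interval of each of its 3 ratios includes 1. MiR-320d had 9, 6 and 13 reads with ratios of 0.724, 0.474 and 1.34, and a log2 fold change of -0.37 (SE 0.41, adjusted p = 0.590 by edgeR).

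Thus edgeR called 0 of 4 members, and 0 had an unadjusted p under 0.05, which 621 of the 2374 tested miRNAs had. MiR-320a came nearest, with an unadjusted p = 0.0544 in edgeR. Over all 2374 tested miRNAs, 4.97% were called higher and 0.505% lower. Over all tested miRNAs the log2 fold changes had a median of 0.29, and over the 4 members one of -0.22. TMM scaling brings the median of all close to zero and gave miR-320a a log2 fold change of -0.65 (adjusted p = 0.0520 in edgeR), with 0 members called. Of the members, 2, miR-320a and miR-484, then had an unadjusted p under 0.05, as did 382 of all 2374 tested miRNAs. DESeq2 called 1 member, miR-320a, at -0.66 (adjusted p = 0.0212). On the scale of total reads, 118 miRNAs were called higher and 12 lower, and with TMM 21 and 34. FTO is an mRNA and has no row among miRNA counts, so the knockdown itself was not checked here. As each line gave 1 library per group, p-values measure the spread between these libraries.

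**Figure D1:**
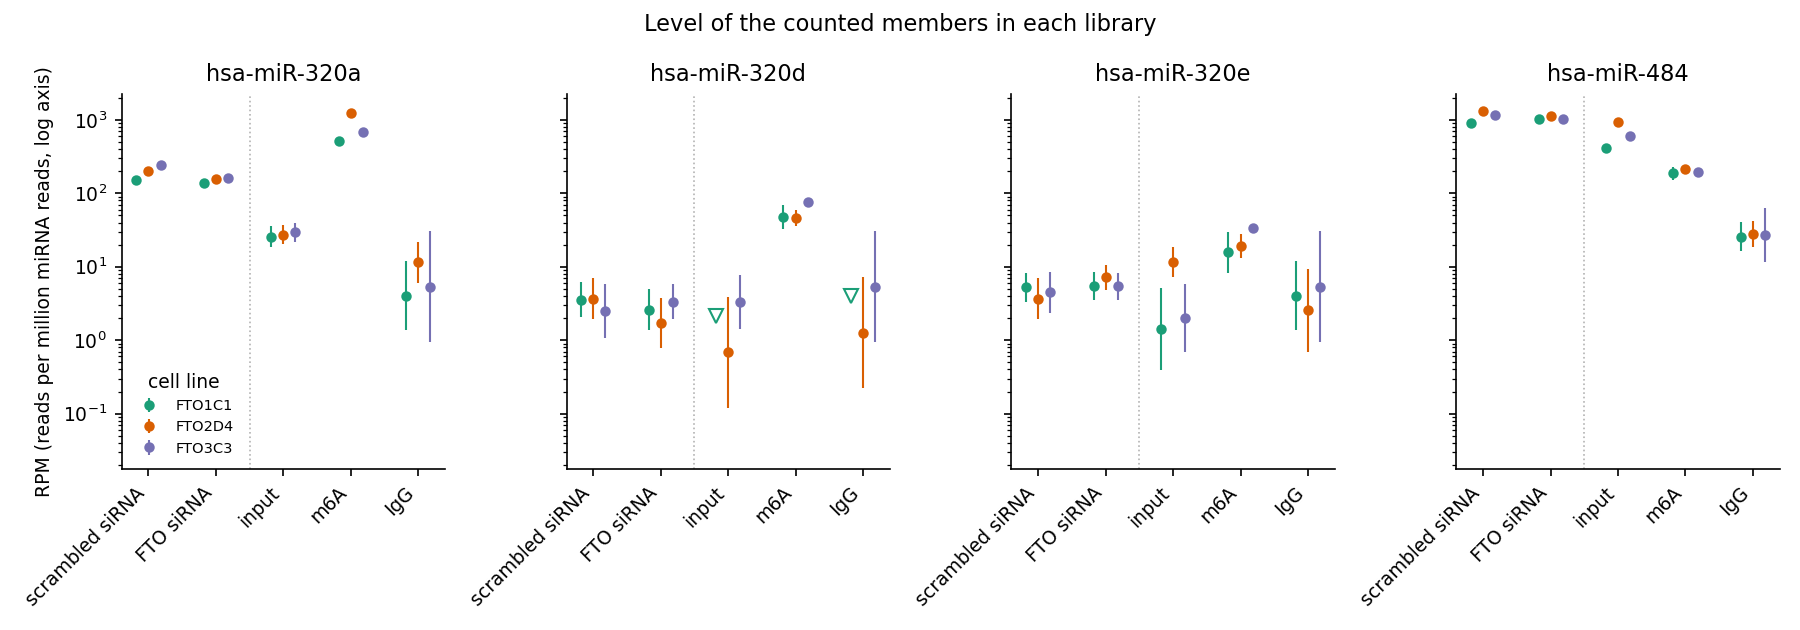
Level of each counted member in RPM (log axis) by group and cell line, with 95% Wilson counting intervals. Open triangles mark the floor of 3 reads taken for a count of 0, and the dotted line parts the knockdown from the RIP-seq libraries, which were separate experiments. MiR-320a is highest in the 3 m6A libraries of the RIP-seq part, whereas miR-484 is highest in the 3 inputs.

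The precipitates ask which miRNAs the m6A antibody retains beyond nonspecific IgG. MiR-320a was among the most retained miRNAs. It had 290, 1670 and 3393 reads in the m6A libraries of FTO1C1, FTO2D4 and FTO3C3, which are 509, 1225.4 and 682 RPM (mean 806 ± 374, SD, n = 3). The IgG libraries held 3, 9 and 1 reads, or 4.05, 11.4 and 5.36 RPM (6.95 ± 3.94). All m6A libraries were far above all IgG libraries, though the share of all miRNAs separated in this way was not counted. The rank of the mean was 77 of 2189 after m6A and 1963 after IgG precipitation. The ratios of m6A to IgG were 126 (95% exact counting interval 42.6 to 614), 107 (56.3 to 235) and 127 (22.8 to 5026), with a mean of 120.1 ± 11.2. The counting intervals are wide, since the ratios rest on 13 IgG reads in all. The ratios lie closer together than these intervals, so the SD of 11.2 does not show the counting error.

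The other miR-320 members were retained as well, at far lower levels. MiR-320d had 27, 63 and 381 reads in the m6A libraries, equal to 47.4, 46.2 and 76.6 RPM (56.7 ± 17.2), and 0, 1 and 1 reads after IgG. With 3 reads as the floor for the count of 0, it was 11.7-fold higher in FTO1C1, where the counting interval starts at 8.89. In FTO2D4 its ratio was 36.4 (counting interval 6.29 to 1459) and in FTO3C3 14.3 (2.55 to 566). MiR-320e had 9, 26 and 165 reads, equal to 15.8, 19.1 and 33.2 RPM (22.7 ± 9.23), and 3, 2 and 1 reads after IgG. Its ratios were 3.91 (0.975 to 22.4), 7.50 (1.88 to 65.2) and 6.19 (1.09 to 246), the lowest of the family in each line. For both members no m6A library overlapped with an IgG library. How many of all miRNAs were separated in this way was not counted.

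MiR-484 was higher after m6A than after IgG precipitation by a factor below those of miR-320a and miR-320d and above that of miR-320e in each line. In each line, however, the counting interval of miR-484 overlapped with those of miR-320d and miR-320e, so its order among these is not resolved. It had 106, 293 and 976 reads after m6A precipitation (186, 215 and 196 RPM, mean 199 ± 14.7) and 19, 22 and 5 after IgG (25.6, 27.97 and 26.8 RPM, mean 26.8 ± 1.17). The ratios were 7.26 (counting interval 4.43 to 12.5), 7.69 (4.98 to 12.5) and 7.32 (3.13 to 22.6), with a mean of 7.42 ± 0.231.

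In edgeR (quasi-likelihood, Benjamini-Hochberg adjusted), 4 of 4 members were called higher in m6A than in IgG, against 38.6% higher and 1.27% lower of the 2054 tested miRNAs. MiR-320a, with 1 to 9 reads per IgG library, miR-320d and miR-320e reached the minimum count only through the m6A libraries. Their place among the tested miRNAs is therefore itself set by the level after m6A precipitation. Their calls and ranks are thus description only, and the comparison with the share of all miRNAs rests on miR-484 alone. The log2 fold change was 6.83 (SE 0.38, adjusted p = 3.79e-06) for miR-320a, and 13 miRNAs had a larger value. MiR-320d followed with 5.28 (SE 0.69, adjusted p = 0.000434), with 49 miRNAs above it. MiR-484 reached 2.89 (SE 0.34, adjusted p = 0.000249) and miR-320e 2.45 (SE 0.57, adjusted p = 0.00832). The intervals of 1 SE of miR-484 and miR-320e overlapped, while that of miR-320a overlapped with no other member. The median of the 4 members, with miR-320a, miR-320d and miR-320e among them, was 4.08, against 0.83 over all tested miRNAs. TMM scaling brings the latter to 0.06 and called 453 miRNAs higher and 302 lower (792 and 26 on the scale of total reads), and the 4 members were then at 6.02, 4.54, 2.12 (miR-484) and 1.69 (miR-320e), each called higher. The call of miR-320e was lost without FTO2D4 (2.19, adjusted p = 0.0590) and with DESeq2 (1.68, adjusted p = 0.148).

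A miRNA can also be counted as enriched when it has at least 100 RPM in all 3 m6A libraries and a mean ratio to IgG of at least 2. The cutoffs of 100 and 2 follow the methods of the study, while their use on all 3 libraries and on the mean ratio, the total of miRNA reads as the scale and the 3 reads for an IgG count of 0 are choices made here, so the number and the ranks hold for this rule only. This held for 258 of 2189 miRNAs (11.8%). MiR-320a and miR-484 were among them, at ranks 10 and 151 by mean ratio. MiR-320d and miR-320e did not reach 100 RPM in any m6A library.

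**Figure D2:**
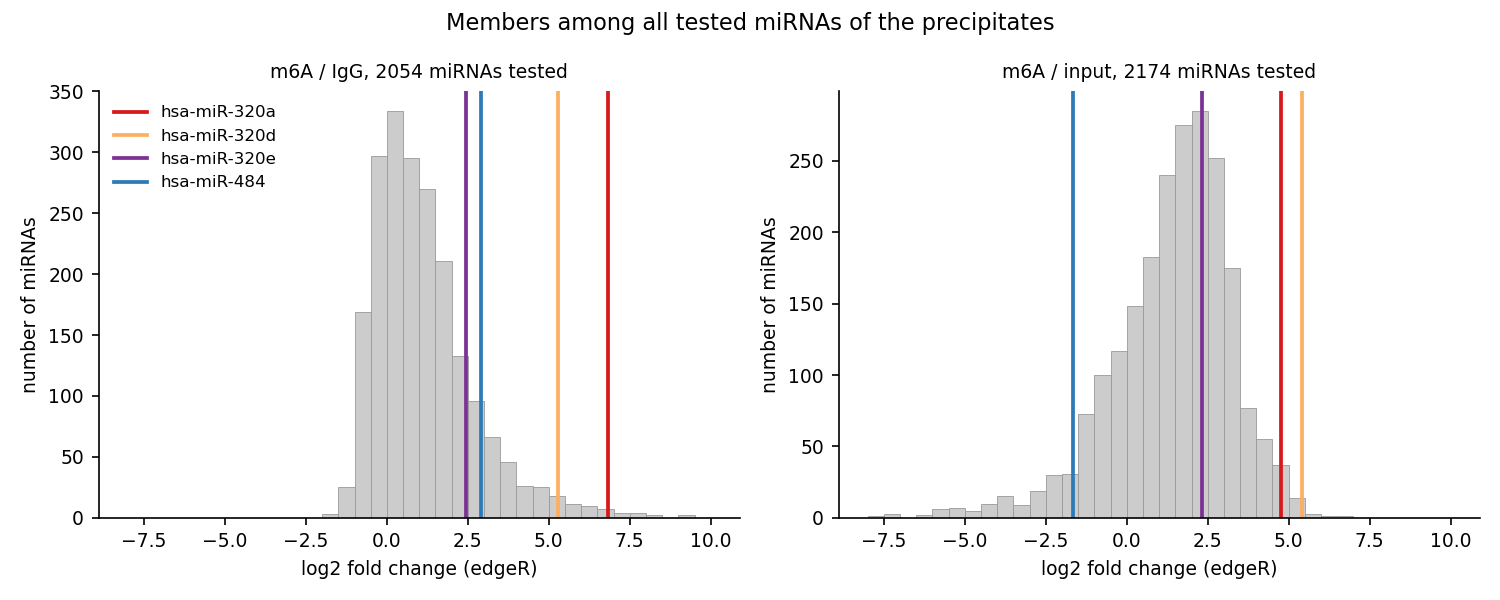
Histograms of log2 fold changes (horizontal axis) over all tested miRNAs, with the number of miRNAs on the vertical axis, for m6A against IgG (left) and m6A against input (right), with vertical lines at the 4 counted members. In the left panel all 4 lines lie above the median of 0.83, with miR-320a at 6.83. In the right panel miR-484, at -1.65, lies on the other side of zero from the miR-320 members.

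Set against the input, miR-320a and miR-484 went opposite ways. MiR-320a had 36, 40 and 44 input reads in FTO1C1, FTO2D4 and FTO3C3, which are 25.6, 27.4 and 29.3 RPM (mean 27.4 ± 1.89, SD, n = 3). Its m6A libraries exceeded the input 19.9-, 44.7- and 23.3-fold (mean 29.3 ± 13.5). For miR-484, the input held 590, 1373 and 907 reads, or 419, 941 and 605 RPM (655 ± 264). The m6A libraries were lower, with ratios of 0.444, 0.229 and 0.325 (mean 0.333 ± 0.108). In both cases the m6A and input libraries did not overlap, though the share of all miRNAs without such overlap was not counted. The order of the groups was m6A, input, IgG for miR-320a and input, m6A, IgG for miR-484. MiR-320a rose from rank 745 of the input to rank 77 of the m6A libraries, and miR-484 went from rank 96 to rank 286.

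MiR-320d was nearly absent from the input, with 0, 1 and 5 reads. With 3 reads as the floor for the count of 0, it was 22.3-fold higher after m6A precipitation in FTO1C1, where the counting interval starts at 16.9. It was 67.5-fold higher in FTO2D4 (counting interval 11.7 to 2707) and 23.0-fold in FTO3C3 (9.77 to 71.2). This floor equals 2.13 RPM in the input of FTO1C1, where the Wilson interval of the count of 0 reaches 2.73 RPM. MiR-320e had 2, 17 and 3 input reads, so that FTO2D4 stood apart with 11.6 RPM against 1.42 and 2.00 RPM in the other lines. Its ratios were 11.1 (2.30 to 106), 1.64 (0.856 to 3.22) and 16.6 (5.58 to 81.3), and in FTO2D4 the interval includes no change. Input and IgG overlapped for both minor members.

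In edgeR (Benjamini-Hochberg adjusted), 3 members were higher and 1 was lower in m6A than in input, against 66.8% higher and 10.5% lower of the 2174 tested miRNAs. MiR-320d and miR-320e, which had too few reads for the test of IgG against input, entered here too only through the m6A libraries. Their calls and ranks are again description only. MiR-320d had a log2 fold change of 5.40 (SE 0.56, adjusted p = 3.90e-09) with 8 miRNAs above it, and miR-320a one of 4.78 (SE 0.47, adjusted p = 1.91e-09) with 33 above it. MiR-320e reached 2.33 (SE 0.55, adjusted p = 0.000439), where the median over all tested miRNAs was 1.65. Its value was 3.79 without FTO2D4 and 1.49 without FTO3C3, and that of miR-320d was 6.69 without FTO3C3. MiR-484 stood at -1.65 (SE 0.40, adjusted p = 0.000555), with 124 miRNAs below it. TMM scaling brings the median of all to 0.10 and changes the split from 1452 higher and 229 lower to 575 and 614. MiR-320a was then at 3.23, miR-320d at 3.80 and miR-484 at -3.20, each still called, whereas miR-320e at 0.76 was no longer called (adjusted p = 0.291, and 0.275 with DESeq2). The direction of miR-320a and miR-484, which had enough reads in the input libraries, was thus the same on both scales.

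IgG against input is a measure of what nonspecific precipitation leaves. Here 2 of the 4 members passed the count filter, and both were lower, against 36.8% higher and 21.8% lower of the 1941 tested miRNAs. MiR-320a, with 1 to 9 reads per IgG library, passed the filter only through the input libraries. Its call is thus description only, and the comparison with the share of all miRNAs rests on miR-484. MiR-484 fell by 4.54 on the log2 scale (SE 0.50, adjusted p = 1.92e-18 by edgeR), with ratios of 0.0612, 0.0297 and 0.0444. MiR-320a fell by 1.91 (SE 0.60, adjusted p = 0.00314 by edgeR), with ratios of 0.158 (counting interval 0.0312 to 0.501), 0.417 (0.178 to 0.874) and 0.183 (0.00453 to 1.07). In FTO3C3 the interval of miR-320a includes no change. Its call was lost without FTO1C1 (-1.58, adjusted p = 0.114) and with totals that leave out miR-6080 (-0.72, adjusted p = 0.233). The median over all tested miRNAs was 0.49, and TMM, which brings it to -0.02, called 559 miRNAs higher and 586 lower, where the scale of total reads gave 714 and 423. The comparisons of m6A with IgG, m6A with input and IgG with input share their libraries, so the values of a member are given side by side and not as separate support.

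**Figure D3:**
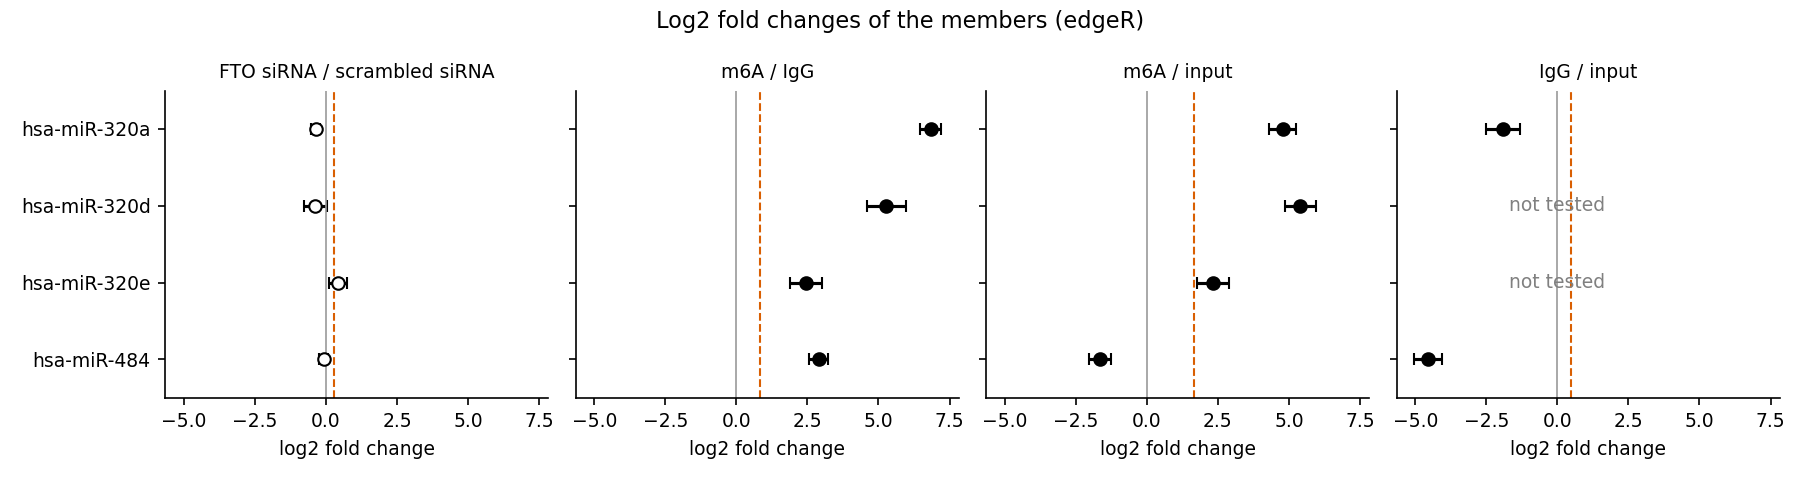
Log2 fold changes (horizontal axes, bars 1 SE) of the counted members in the 4 comparisons by edgeR. Filled points have an adjusted p under 0.05, and the dashed line is the median of all tested miRNAs. No member is called in the left panel, and miR-320a, at 6.83 over IgG and 4.78 over input, lies apart from miR-484, at 2.89 and -1.65.

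Ratios between members of the same library do not depend on its total. MiR-320a reads per miR-484 read were 0.0610, 0.0291 and 0.0485 in the inputs of FTO1C1, FTO2D4 and FTO3C3 (mean 0.0462 ± 0.0161, SD, n = 3). They were 0.158, 0.409 and 0.200 after IgG (0.256 ± 0.135) and 2.74, 5.70 and 3.48 after m6A precipitation (3.97 ± 1.54). MiR-484 thus outnumbered miR-320a in every input and IgG library and was outnumbered by it in every m6A library. In the knockdown libraries, a separate experiment, the scrambled siRNA libraries gave ratios of 0.171, 0.150 and 0.205 (0.175 ± 0.0279) and the FTO siRNA libraries 0.136, 0.138 and 0.155 (0.143 ± 0.0103). These groups overlapped between 0.150 and 0.155, with the FTO siRNA library lower in each line. This ratio was chosen after its values were seen, and it is given without a test.

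MiR-320a made up nearly all reads of the counted family. With scrambled siRNA its share of the miR-320a, miR-320d and miR-320e reads was 96.1% ± 1.34 (SD, n = 3, 490 to 589 reads), and with FTO siRNA 94.6% ± 0.143 (510 to 652 reads). The share was lower with FTO siRNA in each line, by little in FTO1C1 (94.6% and 94.5%) and more in FTO2D4 (96.5% and 94.6%) and FTO3C3 (97.1% and 94.8%). The difference was not significant (p = 0.3, exact two-sided permutation test over libraries, which leaves the pairing by line out). The share of miR-320e was 2.27% ± 0.825 and 3.77% ± 0.576 (exact permutation p = 0.2), with higher values in each line after FTO siRNA. With 3 against 3 libraries, this test cannot go below 0.1.

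In the RIP-seq libraries, miR-320a made up 82.8% ± 13.0 of the family reads in the input (38 to 58 reads), 90.01% ± 4.49 after m6A precipitation (326 to 3939 reads) and 52.8% ± 21.0 after IgG, where only 3 to 12 family reads were counted. The exact permutation p was 0.4 for m6A against input and 0.1 for m6A against IgG. The lowest input share, 69.0%, belongs to FTO2D4, the line with 17 miR-320e reads. Per 100 miR-320a reads, there were 1.05 to 2.33 miR-320d reads in the scrambled siRNA libraries, 1.11 to 2.10 in those of FTO siRNA, a separate experiment, 0 to 11.4 in the inputs and 3.77 to 11.2 in the m6A libraries. The inputs thus overlapped with the m6A libraries, and the share of miR-320d in the family reads was 3.78% ± 5.13 and 7.18% ± 3.19 (SD, n = 3, exact permutation p = 0.3). The summed family reached 33.8 ± 6.42 RPM in the input, 885 ± 368 RPM after m6A and 13.1 ± 4.40 RPM after IgG precipitation.

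**Figure D4:**
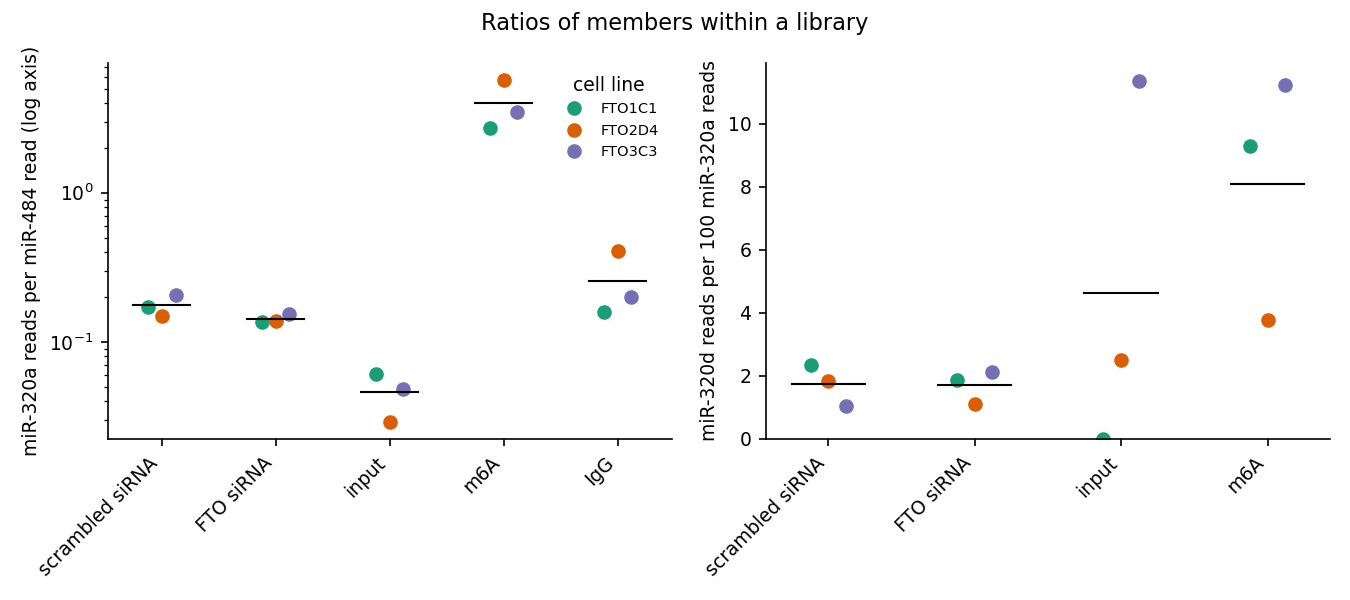
Reads of miR-320a per miR-484 read in each library (left, log axis) and of miR-320d per 100 miR-320a reads (right), with points coloured by cell line and bars at the mean of 3. The right panel leaves out IgG, where miR-320a had 1 to 9 reads. On the left the m6A libraries, at 2.74 to 5.70, lie above all others, and on the right they overlap with the inputs.

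A miRNA outside the group shares its seed with miR-320d. It is hsa-miR-4429, which was looked up after the seeds of all RIP-seq miRNAs had been read.

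hsa-miR-4429: aAAAGCUGggcugagaggcg

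On GRCh38.p14 it lies at chr2:11540652-11540671 on the minus strand. It has its first 10 bases in common with miR-320d, and a full read of miR-320b, miR-320c or miR-320d covers 17 of its bases in exact matches, so it meets the same criterion as the members. MiR-4429 had 410 ± 53.1 RPM with scrambled siRNA (SD, n = 3) and 572 ± 133 RPM with FTO siRNA (log2 fold change 0.46, adjusted p = 0.132 by edgeR). It was at 180 ± 48.1 RPM in the input, 359 ± 40.9 after m6A and 16.7 ± 9.01 after IgG precipitation. Its log2 fold change was 4.60 over IgG (adjusted p = 4.35e-05) and 1.02 over input (adjusted p = 0.0206, both by edgeR). With the same seed, miR-320d stood at 5.40 over input, and the difference between the 2 miRNAs was not tested.

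Lists of other routes give a scale for these values. Mirtrons are hairpins made by splicing of short introns, which also skip Drosha, and the products of 12 such hairpins were looked up. In m6A against IgG, 4 of 19 tested mirtron miRNAs passed as higher and 0 as lower, and the median of the list was 0.39 on the log2 scale. MiR-877-5p was the highest at 4.85 and miR-1233-5p the lowest at -0.61, and all 19 lay below miR-320a and miR-320d. Over all tested miRNAs, 38.6% were called higher in this comparison. In m6A against input, 17 of 19 were higher and 1 was lower, with a median of 2.49, where 66.8% of all tested miRNAs were called higher and 1746 of 2174 had a positive value. The guide strands of the miR-17-92 cluster, a standard substrate of Drosha, were also retained over IgG, with 4 of 5 tested called higher and a median of 3.57, from 1.89 (miR-92a-3p) to 4.75 (miR-17-5p). Against input, however, all 6 of them were lower, with a median of -4.44 between -5.04 (miR-20a-5p) and -3.70 (miR-19a-3p). The sign of miR-484 over input was that of this cluster, and the positive sign of the miR-320 members was that of most mirtrons and of most miRNAs. This describes the lists and was not tested. After FTO knockdown, 1 of 20 tested mirtron miRNAs and 0 of 6 miR-17-92 strands were called, the former higher, with medians of 0.27 and 0.03.

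Over the 9 RIP-seq libraries, the level of miR-320a on the scale of log2(RPM + 1) was most like that of miR-377-3p (Pearson's r = 0.991), miR-4653-5p (0.988), miR-501-3p (0.987), miR-3681-5p (0.986) and miR-1255a (0.986), among 447 miRNAs with a mean of at least 100 RPM. All 5 had their highest mean after m6A precipitation, from 285 RPM for miR-377-3p to 3249 RPM for miR-4653-5p. The level of miR-484 was most like that of miR-26a-5p (0.993), miR-28-3p (0.987), miR-181c-5p (0.987), miR-370-3p (0.987) and miR-548k (0.987), which all had their highest mean in the input. The r between miR-484 and miR-320a was 0.423, and that between miR-320d and miR-320a was 0.876, against a median of 0.287 for miR-320a with all 447. These correlations describe 3 groups of 3 libraries that share their cell lines and differ in depth. Both lists were picked by correlation over these same libraries, so the group with their highest mean follows from the choice and is no separate result.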

How the data were processed

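Small RNA was sequenced from 15 libraries. After the Methods of the paper, the authors removed adapters with cutadapt, kept reads of 16 to 28 bases and matched them to mature miRNAs of miRBase, and they deposited unnormalized read counts per miRNA in separate knockdown and RIP-seq tables, so tests were made within a table. Here counts were scaled to the summed miRNA reads of a library (RPM) and tested over all miRNAs of a table with edgeR 4.0.16 in R 4.3.3 (quasi-likelihood test, filterByExpr with a minimum count of 10, total miRNA reads as library size, cell line as a block, Benjamini-Hochberg threshold 0.05), after checks on simulated data. DESeq2 1.42.0 was an alternative. Ratios carry exact and shares Wilson intervals (95%) from scipy 1.17.1, and IgG or input counts of 0 were set to 3 reads. Cell lines pair the libraries by origin; deviations from group means correlated at 0.121 to 0.189 in the knockdown and at -0.0711 to 0.0661 in the RIP-seq comparisons. Libraries of a group differed by more than sampling noise (chi-square per degree of freedom 6.11 to 145.3). All counted members, the mirtrons, the miR-17-92 guide strands and the 5 miRNAs most like miR-320a and miR-484 are named; members and lists were chosen with earlier results of these data known.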

Additional observations from a re-analysis of the deposited data

How the results depend on the processing

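Of 120 log2 fold changes of the members under other settings, 112 kept their direction and their side of the threshold. DESeq2 called 1 member after knockdown, where edgeR called 0. The value of miR-484 after knockdown ranged from -0.21 to 0.0038 with a line left out, and was 0.0038 without FTO2D4. In IgG against input, 1 member was called with totals without miR-6080, and 1 to 2 with a line left out (1 without FTO1C1). Totals without miR-6080 also lowered the mean m6A to IgG ratio to 77.5 for miR-320a, 12.1 for miR-320d (20.8 with all), 3.64 for miR-320e and 4.71 for miR-484, and miR-320e was then not tested. Without the cell line as a block (no pairing), miR-320a was at -0.38 after knockdown and 6.74 over IgG and miR-484 at -1.72 over input, and no call of a member changed, although the calls over the whole knockdown table went from 118 higher and 12 lower to 37 and 4. With only miR-320a and the second most counted member, the difference in the share of miR-320a was 12.6 points for m6A against IgG (37.2 with all 3) and -3.20 for m6A against input (7.24 with all 3). With a line left out, it ranged from -2.13 (without FTO2D4) to 13.7 for m6A against input and from -48.0 (without FTO2D4) to -19.4 for IgG against input (-30.0 with all lines). The cause of these changes was not tested. Depth limits miR-320d and miR-320e most, with 0 to 3 reads in each IgG library.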
